A study of Mus musculus with 8 samples.

Results

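Histone modifying enzymes add or remove methyl and acetyl groups on the tails of histones, the proteins that package DNA. The genes described here were those whose annotated symbol starts with Kdm (lysine demethylases), Setd, Ehmt or Ezh (lysine methyltransferases), Prmt (arginine methyltransferases) or Hdac (deacetylases), or is Kat followed by a number (acetyltransferases). Kdm5c, Kdm5d and Kdm6a were left out. With 1 probe set per gene, the brightest over all arrays, 57 genes of the 18193 named genes on the array met this rule: 15 demethylases, 15 lysine methyltransferases, 8 arginine methyltransferases, 8 acetyltransferases and 11 deacetylases. Ezhip carries an Ezh symbol but encodes an inhibitor of the Ezh2 complex, and it is counted with the lysine methyltransferases.

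The arrays hold RNA of macrophages grown from the bone marrow of wild-type mice on the C57BL/6J background, whose age and sex are not given in the sources used here. Marrow cells were grown with supernatant of L929 cells, which supplies macrophage colony stimulating factor, and on day 7 all of them were replated without it. M0 macrophages then had media alone, M1 macrophages had LPS at 100 ng/ml and IFN-γ at 20 ng/ml, and M2 macrophages had IL-4 at 20 ng/ml. RNA was taken at 24 hours and hybridised to Affymetrix mouse arrays, 3 for M0, 3 for M1 and 2 for M2. By the labels, arrays of the same condition are numbered biological replicates. The methods do not settle how many came from separate mice and how many were cultures of 1 mouse. Each p-value therefore measures the spread between these arrays. Levels are RMA intensities on a linear scale, called units, and differences are log2 differences between conditions. A gene passed at an adjusted p under 0.05 in limma, whatever its fold change.

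Methylation of histone H3 at different lysines marks active promoters (H3K4), transcribed gene bodies (H3K36), heterochromatin (H3K9) or Polycomb-repressed genes (H3K27), and acetylation of histone tails goes with open chromatin. Methyltransferases and acetyltransferases write these marks, and demethylases and deacetylases erase them. In macrophages such enzymes act at the enhancers and promoters of inflammatory genes, and several also modify signalling and splicing proteins.

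Median intensity lay between 38.9 and 40.4 units on the 8 arrays, and log2 intensities of arrays of 1 condition correlated at 0.994 to 0.997 across probes. The enzyme genes were mostly expressed, with 53 of 57 above a mean of 64 units. The other 4 were Prmt8 at 13.6 units, Kdm4d at 11.5, Kdm8 at 45.9 and Ezhip at 20.8. All 8 macrophage markers looked up were above 64 units on at least 1 array, and their summed level was 78572 to 81228 units in M0, 75999 to 77619 in M1 and 53163 to 56861 in M2, where 5 of the 8 fell. All 10 M1 response genes looked up rose in M1, and all 10 M2 response genes rose in M2. No T cell, NK cell, mast cell or erythroid marker exceeded 64 units on any array, while 1 B cell, 1 neutrophil, 1 endothelial and 2 dendritic cell markers did. Of 6 fibroblast markers 2 rose in M1. The sum of all 6 was 204 to 343 units in M1 against 145 to 174 in M0 and 163 to 263 in M2. The part of such cells in the differences below was not tested. In RNA of whole cultures, fewer cells of a type and less RNA per cell cannot be told apart.

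The enzymes moved in both directions, and by small amounts. In M1 against M0, 13 of the 57 genes passed as higher and 5 as lower, or 31.6%, beside 25.2% of all named genes (13.7% higher and 11.5% lower). Among genes above a mean of 64 units the share was 40.8% for all genes and 34.0% for the enzymes. In M2 against M0, 7 passed as higher and 3 as lower, or 17.5%, beside 14.5% of all genes (8.03% higher and 6.43% lower). The share of genes above 64 units that passed was 23.5% for all genes and 18.9% for the enzymes. The count of higher genes in M2 was 2 without M2 replicate 1, 4 without M2 replicate 2 and 4 without M0 replicate 2, and that of lower genes was 1 without M2 replicate 2. In M1 the count of lower genes was 3 without M0 replicate 1 and 3 without M1 replicate 1.

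Only Kdm6b and Kdm4a passed with a change of at least 2-fold in M1, both as higher, beside 6.00% of all genes in either direction. Kdm4a was just past 2-fold, and its difference was 0.96 without M0 replicate 1 and 0.89 without M1 replicate 3, both under that limit. In M2 no enzyme gene passed at 2-fold in limma, beside 3.68% of all genes, and 22 of the 57 (38.6%) had an unadjusted p under 0.05, as had 26.2% of all genes and 39.2% of all genes above 64 units. The methods' t-test with adjustment, at any fold change, called 0 enzyme genes in M2, but on log2 values it called only 270 of all 45037 probes. Without adjustment it gave 12 higher and 8 lower enzyme genes on log2 values, and the share over all genes was not counted. The median log2 difference over the 57 genes was 0.05 in M1 and 0.08 in M2, and over all genes above 64 units it was 0.03 in each. Of all 57, 5 passed in both comparisons, 13 in M1 alone, 5 in M2 alone and 34 in neither, and none passed in opposite directions. Both comparisons share the M0 arrays. The arrays of the groups compared did not overlap for 29 of the 57 genes in M1 and for 30 in M2, beside 40.3% and 43.8% of all genes. These shares take in dim genes, since 9856 of all 18193 genes were above a mean of 64 units, against 53 of the 57 enzymes.

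**Figure D1:**
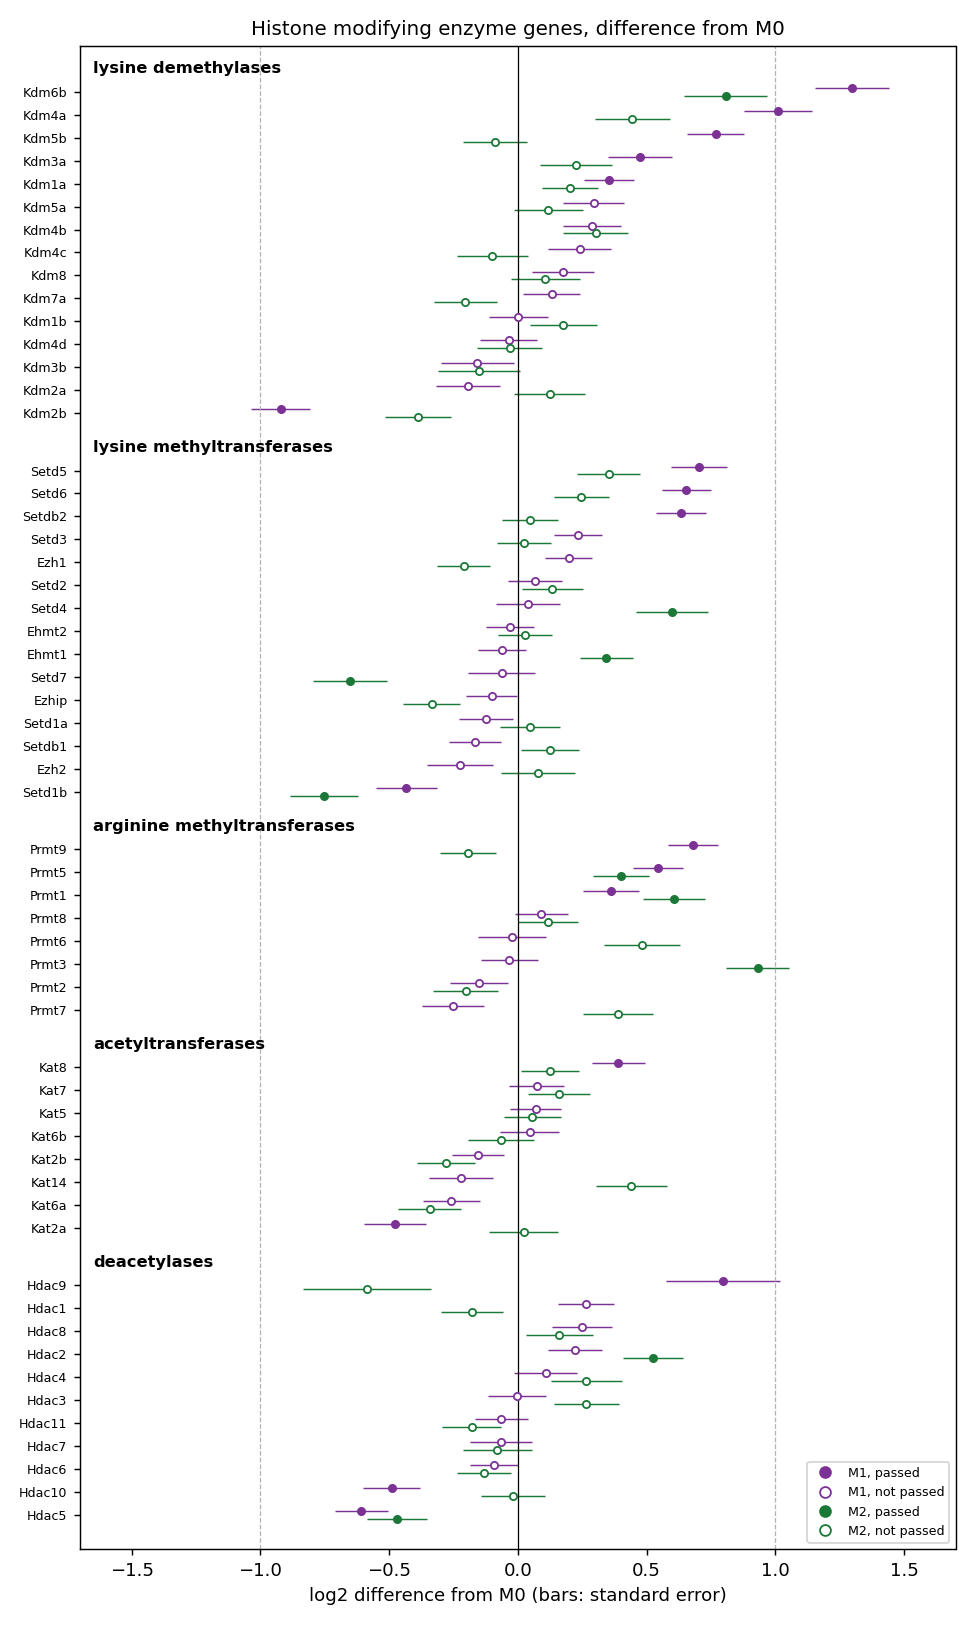
Log2 differences of all 57 enzyme genes in M1 (purple) and M2 (green) against M0, by class, with bars of 1 standard error and filled points for genes that passed in limma. Dashed lines mark a 2-fold change. Kdm6b at 1.30 and Kdm4a at 1.01 in M1 are the points past the upper line.

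Lysine demethylases erase methyl marks. Of the 15, 5 rose and 1 fell in M1, with a median log2 difference of 0.24, and 1 rose in M2, with a median of 0.12. The shares that passed were 40.0% in M1 and 6.67% in M2, beside 40.8% and 23.5% of all genes above 64 units. Kdm6b, which removes the repressive H3K27 methyl mark, had 137, 116 and 158 units on the M0 arrays, 361, 306 and 338 units on the M1 arrays and 203 and 278 units on the M2 arrays. Every M1 and every M2 array was above all M0 arrays. The means were 137 ± 21.1 units (SD, n = 3), 335 ± 27.7 units (SD, n = 3) and 241 ± 52.6 units (SD, n = 2), so Kdm6b rose 2.46-fold in M1, by 1.30 on the log2 scale (SE 0.14, adjusted p = 3.5e-05), and rose in M2 by 0.81 on the log2 scale (SE 0.16, adjusted p = 0.00558). Without M2 replicate 2 the M2 difference was 0.58 (adjusted p = 0.0797). M1 was not called apart from M2, at 0.49 (adjusted p = 0.051).

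Kdm4a, which demethylates H3K9 and H3K36, had 243, 266 and 269.8 units on the M0 arrays, 516, 447 and 619 units on the M1 arrays and 319 and 391 units on the M2 arrays. All M1 arrays lay above all others. It rose 2.02-fold in M1, by 1.01 on the log2 scale (SE 0.13, adjusted p = 1.2e-04), and its M2 difference of 0.44 (adjusted p = 0.0717) did not pass. Kdm5b, an eraser of H3K4 methylation, had 121, 129 and 129 units on the M0 arrays, 244, 188 and 217 units on the M1 arrays and 114 and 123 units on the M2 arrays. M1 stood clear of both other groups, which overlapped. Its log2 difference was 0.77 on the log2 scale (SE 0.11, adjusted p = 3.0e-04) in M1 and -0.09 (adjusted p = 0.752) in M2.

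Kdm3a, an H3K9 demethylase that hypoxia induces, had 337, 441 and 423 units on the M0 arrays, 609, 521 and 531 units on the M1 arrays and 433 and 499 units on the M2 arrays and rose in M1 by 0.47 on the log2 scale (SE 0.12, adjusted p = 0.0164). Kdm1a, which demethylates H3K4 with FAD as its cofactor, had 394, 454 and 447 units on the M0 arrays, 527, 563 and 564 units on the M1 arrays and 493 and 498 units on the M2 arrays and rose in M1 by 0.36 on the log2 scale (SE 0.10, adjusted p = 0.0206). All M1 arrays of both genes were above all M0 arrays, but the steps were small. Without M0 replicate 1 the adjusted p became 0.0713 for Kdm3a and 0.0895 for Kdm1a, and the calls were also lost without M1 replicate 1 for Kdm3a and M1 replicate 2 or 3 for Kdm1a.

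Kdm2b, an H3K36 demethylase that brings a form of Polycomb repressive complex 1 to CpG islands, was the demethylase that fell. It had 1250.1, 1363 and 1553 units on the M0 arrays, 722, 818 and 660.0 units on the M1 arrays and 1059 and 1055 units on the M2 arrays. The M1 arrays were the lowest, the M2 arrays lay between and the M0 arrays were the highest, with no overlap. The difference was -0.92 on the log2 scale (SE 0.12, adjusted p = 9.5e-05) in M1 and -0.39 (adjusted p = 0.074) in M2. The related Kdm2a gave -0.19 (adjusted p = 0.356) in M1 and 0.12 (adjusted p = 0.671) in M2.

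**Figure D2:**
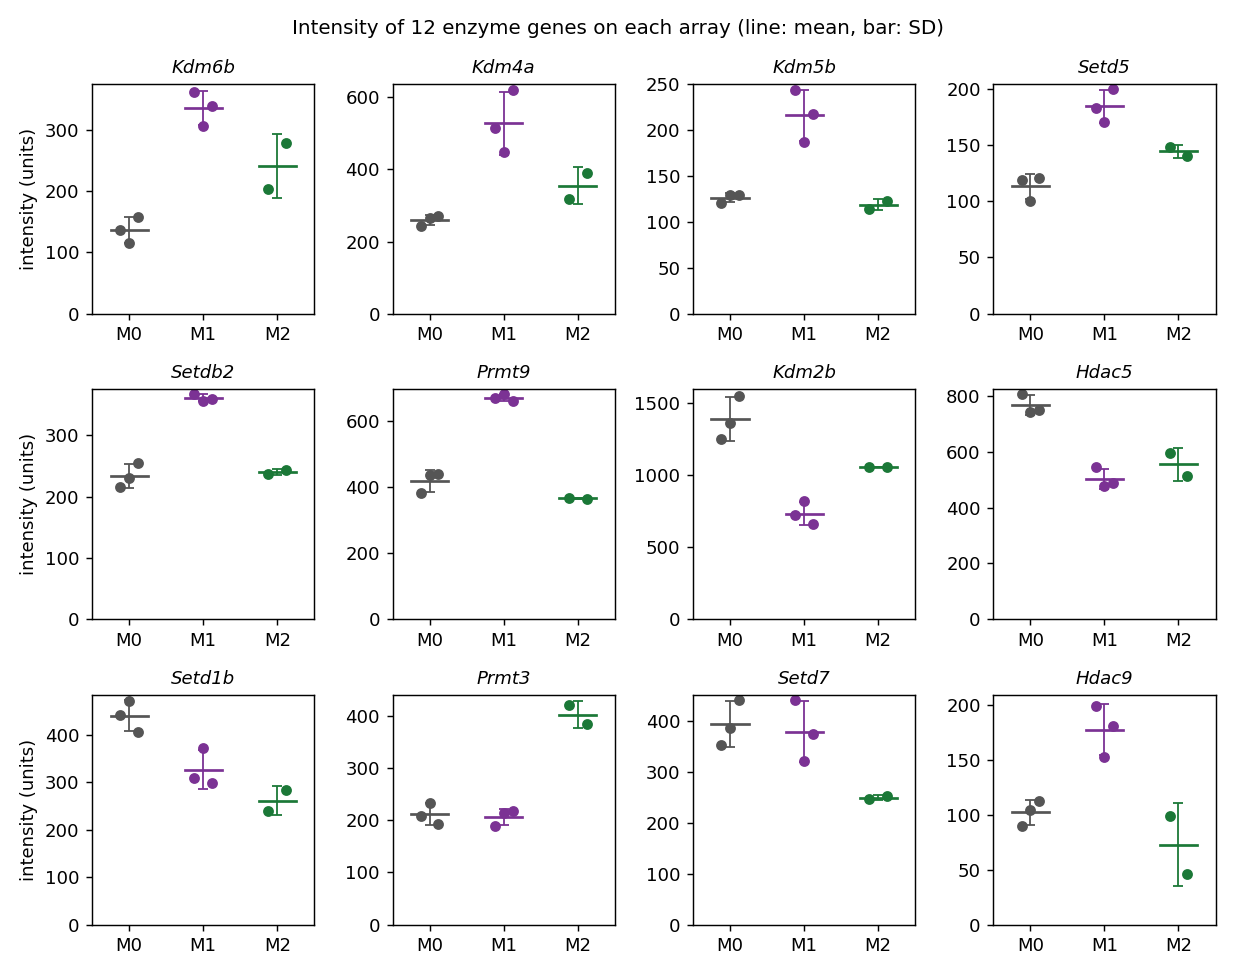
Intensity in units on each array for 12 enzyme genes, 1 panel a gene with its own axis, with points for arrays, a line for the mean and a bar for 1 SD in M0 (n = 3), M1 (n = 3) and M2 (n = 2). The M1 points of Kdm6b, Kdm4a, Kdm5b, Setd5, Setdb2 and Prmt9 lie above all M0 points and those of Kdm2b and Hdac5 below, whereas for Prmt3 and Setd7 it is the M2 points that stand apart.

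Lysine methyltransferases write these marks, but the class was set by symbol alone and can hold members that do not, such as Ezhip. Of the 15, 3 rose and 1 fell in M1 and 2 rose and 2 fell in M2, with medians of -0.03 and 0.05. In each comparison 26.7% passed, beside 40.8% of all genes above 64 units in M1 and 23.5% in M2. Setd5, a SET domain protein of chromatin, had 119, 100.3 and 120.2 units on the M0 arrays, 183, 170.3 and 199 units on the M1 arrays and 148 and 140.2 units on the M2 arrays. The M1 arrays were the highest, the M2 arrays next and the M0 arrays the lowest. Its difference was 0.70 on the log2 scale (SE 0.11, adjusted p = 4.7e-04) in M1, and that of 0.35 (adjusted p = 0.0868) in M2 did not pass. Setd6, which methylates the NF-κB subunit RelA, had 102, 101 and 94.96 units on the M0 arrays, 153, 161 and 154 units on the M1 arrays and 125 and 111 units on the M2 arrays. The groups again did not overlap, and the difference in M1 was 0.65 on the log2 scale (SE 0.10, adjusted p = 3.1e-04).

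Setdb2, an H3K9 methyltransferase that interferon induces, had 216, 229 and 254 units on the M0 arrays, 367, 356 and 359 units on the M1 arrays and 237 and 244 units on the M2 arrays. All M1 arrays were above all others, while M0 and M2 overlapped. Setdb2 rose in M1 by 0.63 on the log2 scale (SE 0.10, adjusted p = 4.6e-04) and gave 0.05 (adjusted p = 0.857) in M2. Its relative Setdb1, which silences retroelements, gave -0.17 (adjusted p = 0.313) in M1 and 0.13 (adjusted p = 0.573) in M2.

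Setd1b, the catalytic subunit of a COMPASS complex that methylates H3K4, had 441, 471 and 406 units on the M0 arrays, 309, 373 and 297 units on the M1 arrays and 239 and 283 units on the M2 arrays. All M0 arrays were the highest, and M1 and M2 arrays did not overlap. It fell in M2, with -0.75 on the log2 scale (SE 0.13, adjusted p = 0.00255), and in M1, with -0.43 on the log2 scale (SE 0.12, adjusted p = 0.0206). The M1 call was lost without M0 replicate 1, M0 replicate 2, M1 replicate 1 or M1 replicate 3, at adjusted p of 0.056 to 0.0971. Setd7, which monomethylates H3K4 and many proteins other than histones, had 353, 387 and 442 units on the M0 arrays, 441, 321 and 374 units on the M1 arrays and 246 and 253 units on the M2 arrays. Both M2 arrays were below all others, and M0 and M1 overlapped. Setd7 fell in M2, with -0.65 on the log2 scale (SE 0.14, adjusted p = 0.0105), and without either M2 array the adjusted p was 0.0745 or 0.0582.

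Setd4, a less studied member, had 122, 109.5 and 108 units on the M0 arrays, 100.1, 138 and 114 units on the M1 arrays and 180.4 and 162 units on the M2 arrays. Both M2 arrays were the highest, and the difference in M2 was 0.60 on the log2 scale (SE 0.14, adjusted p = 0.0137). Ehmt1, which dimethylates H3K9 together with Ehmt2, had 557, 547 and 525 units on the M0 arrays, 526, 494 and 540.5 units on the M1 arrays and 695 and 682 units on the M2 arrays. Its M2 arrays were again the highest, and the difference of 0.34 on the log2 scale (SE 0.10, adjusted p = 0.0491) lay nearest to the threshold of the calls in M2. Without M2 replicate 1 the adjusted p was 0.113 for Setd4 and 0.166 for Ehmt1. Setd4 was also lost without M0 replicate 2, at 0.0522, and Ehmt1 without every other array but M1 replicates 2 and 3.

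Ezh1 and Ezh2, the alternative H3K27 methyltransferases of Polycomb repressive complex 2, did not pass against M0. Ezh2, known to be high in dividing cells, had 173, 240.0 and 195 units on the M0 arrays, 159, 181 and 176 units on the M1 arrays and 226 and 198 units on the M2 arrays. The M0 arrays overlapped with both other groups. Its difference was -0.22 (adjusted p = 0.284) in M1, in which all 19 cell division genes looked up fell, with a median of -2.18, and 18 of 20 DNA replication genes fell, with a median of -1.34. In M2 neither list had a gene that passed in limma, and 2 of 19 and 3 of 20 had an unadjusted p under 0.05. The part of cell division in the enzymes' differences was not tested.

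Arginine methyltransferases modify histone tails and many RNA-binding proteins. Of the 8, 3 rose in M1 and 3 in M2 and none passed as lower in limma in either comparison. That is 37.5% in each, beside 40.8% of all genes above 64 units in M1 and 23.5% in M2. The median difference was 0.03 in M1 and 0.40 in M2. Prmt3, which methylates a ribosomal protein, had 209, 234 and 192 units on the M0 arrays, 188, 215 and 217 units on the M1 arrays and 421 and 384 units on the M2 arrays. Both M2 arrays were well above all others, and M0 and M1 overlapped. The means were 212 ± 21.0 units (SD, n = 3), 207 ± 16.0 units (SD, n = 3) and 403 ± 26.4 units (SD, n = 2). Prmt3 rose in M2 by 0.93 on the log2 scale (SE 0.12, adjusted p = 3.0e-04), the largest called difference of the enzymes in M2, and gave -0.03 (adjusted p = 0.896) in M1.

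Prmt9, which methylates a splicing factor, had 381, 438 and 439 units on the M0 arrays, 669.9, 681 and 661 units on the M1 arrays and 367 and 365 units on the M2 arrays. The M1 arrays were far above all others, and the M2 arrays were the lowest. The difference was 0.68 on the log2 scale (SE 0.10, adjusted p = 2.6e-04) in M1 and -0.19 (adjusted p = 0.317) in M2. Prmt5, the main enzyme of symmetric arginine dimethylation, had 334, 339 and 376 units on the M0 arrays, 516, 508 and 503 units on the M1 arrays and 488 and 436 units on the M2 arrays. All stimulated arrays were above all M0 arrays, with 0.54 on the log2 scale (SE 0.10, adjusted p = 0.00141) in M1 and 0.40 on the log2 scale (SE 0.11, adjusted p = 0.0312) in M2. The M2 call was lost without either M2 array or without M0 replicate 1 or 2, at adjusted p of 0.0515 to 0.19.

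Prmt1, the main enzyme of asymmetric dimethylation, had 672, 661 and 639.8 units on the M0 arrays, 755, 910.4 and 878 units on the M1 arrays and 1086 and 922 units on the M2 arrays. All stimulated arrays were again above M0. Prmt1 rose in M1 by 0.36 on the log2 scale (SE 0.11, adjusted p = 0.0324) and in M2 by 0.61 on the log2 scale (SE 0.12, adjusted p = 0.00574). The M1 call was lost without any 1 of the 3 M0 arrays or without M1 replicate 2 or 3, and the M2 call without M2 replicate 1 (adjusted p = 0.0703). Prmt6 and Prmt7 had differences of 0.48 (adjusted p = 0.0554) and 0.39 (adjusted p = 0.088) in M2, which did not pass.

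Acetyltransferases add acetyl groups to lysines. Of the 8, 1 rose and 1 fell in M1, and in M2 none passed in limma, with 3 at an unadjusted p under 0.05. Kat8, which acetylates H4K16, had 154, 165 and 152 units on the M0 arrays, 186, 225 and 208 units on the M1 arrays and 170.0 and 172 units on the M2 arrays and rose in M1 by 0.39 on the log2 scale (SE 0.10, adjusted p = 0.016). Kat2a, the catalytic subunit of the SAGA coactivator, had 558, 485 and 516 units on the M0 arrays, 317, 431 and 378 units on the M1 arrays and 536 and 518 units on the M2 arrays and fell in M1, with -0.48 on the log2 scale (SE 0.12, adjusted p = 0.013). For both genes the M1 and M0 arrays did not overlap. Without M0 replicate 1 the adjusted p was 0.0515 for Kat8 and 0.0541 for Kat2a, and the calls were also lost without M0 replicate 3 or M1 replicate 2 for Kat8 and M1 replicate 1 for Kat2a. Kat14, of the ATAC coactivator, had 505, 452 and 396 units on the M0 arrays, 346, 444 and 372 units on the M1 arrays and 599 and 619 units on the M2 arrays, and its difference of 0.44 (adjusted p = 0.0584) in M2 lay just outside the threshold.

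Deacetylases remove acetyl groups. Of the 11, 1 rose and 2 fell in M1 and 1 rose and 1 fell in M2. These were 27.3% and 18.2%, beside 40.8% and 23.5% of all genes above 64 units. The class IIa members Hdac5 and Hdac9, which shuttle between nucleus and cytoplasm and repress transcription mainly through their partners, passed in opposite directions in M1. Hdac9 had 89.9, 104 and 113 units on the M0 arrays, 199, 153 and 181 units on the M1 arrays and 99.4 and 46.2 units on the M2 arrays. All M1 arrays were above all others, and the 2 M2 arrays, with an SD of 37.6 units, were farther apart than the arrays of M0 or M1. Hdac9 rose in M1 by 0.80 on the log2 scale (SE 0.22, adjusted p = 0.0224), a call lost without M0 replicate 1 or 2 or M1 replicate 1 or 3 at adjusted p of 0.0588 to 0.0865. Its M2 difference of -0.59 (adjusted p = 0.168) did not pass.

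Hdac5 had 809, 744 and 749 units on the M0 arrays, 544, 479 and 489 units on the M1 arrays and 598 and 514 units on the M2 arrays. All stimulated arrays lay below all M0 arrays. It fell in M1, with -0.61 on the log2 scale (SE 0.10, adjusted p = 9.8e-04), and in M2, with -0.47 on the log2 scale (SE 0.12, adjusted p = 0.0194). The M2 call was lost without M2 replicate 2 (adjusted p = 0.152) and without M0 replicate 1 or 2. Hdac10, a polyamine deacetylase, had 239.8, 249 and 224 units on the M0 arrays, 150.2, 191 and 168 units on the M1 arrays and 243 and 225 units on the M2 arrays and fell in M1, with -0.49 on the log2 scale (SE 0.11, adjusted p = 0.00664). Its M1 arrays were below all others.

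Hdac2, a nuclear deacetylase of several corepressor complexes, had 256, 296 and 295 units on the M0 arrays, 338, 344 and 305 units on the M1 arrays and 428 and 384 units on the M2 arrays. Its M2 arrays were the highest, and it rose in M2 by 0.53 on the log2 scale (SE 0.12, adjusted p = 0.0112), with an adjusted p of 0.0972 without M2 replicate 1. Its partner Hdac1 gave 0.27 (adjusted p = 0.117) in M1 and -0.18 (adjusted p = 0.432) in M2. Genes that did not pass, over all classes, had differences of -0.26 to 0.29 in M1 and -0.59 to 0.48 in M2.

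The stimulated states were also compared directly. Between M1 and M2, 9 of the 57 genes passed as higher in M1 and 9 as lower, or 31.6%, beside 23.8% of all genes (11.5% higher and 12.3% lower). Without M2 replicate 1 the counts were 5 and 2. Among genes above a mean of 64 units, 37.8% of all genes and 34.0% of the enzymes passed between M1 and M2. The M1 and M2 arrays did not overlap for 40 of the 57 genes, beside 46.3% of all genes, dim ones included. Higher in M1 were Hdac9, Prmt9, Kdm5b, Setd7, Setdb2, Kdm4a, Hdac1, Ezh1 and Setd6. The difference was 1.38 (adjusted p = 0.00154) for Hdac9, the 1 enzyme gene past 2-fold beside 7.41% of all genes, with a 95% interval of 0.84 to 1.92, and 0.87 (adjusted p = 8.4e-05) for Prmt9. Without M2 replicate 2 the Hdac9 difference was 0.83 (adjusted p = 0.00993), under 2-fold, and that of Prmt9 was 0.87. For the H3K4 demethylase Kdm5b it was 0.86 (adjusted p = 3.2e-04), and for the H3K9 methyltransferase Setdb2 0.59 (adjusted p = 0.00196).

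Higher in M2 were Prmt3, Kat14, Prmt7, Setd4, Kdm2b, Prmt6, Kat2a, Hdac10 and Ehmt1. The difference, M1 minus M2, was -0.96 (adjusted p = 1.0e-04) for Prmt3, -0.66 (adjusted p = 0.00431) for Kat14 and -0.64 (adjusted p = 0.00456) for Prmt7, an enzyme that adds a single methyl group to arginine. Of the 8 arginine methyltransferases, 3 were higher in M2 than in M1 and 1 was lower. But Prmt6, at -0.50 (adjusted p = 0.0314), turned to 0.68 (adjusted p = 0.00448) on its dimmer probe set, at a mean of 38.7 units. Of the 18 genes, 5 had passed in neither comparison with M0, namely Kat14, Prmt6, Prmt7, Hdac1 and Ezh1. The calls for Hdac9, Kat14, Kdm5b, Prmt3, Prmt9 and Setdb2 held with each array left out in turn, and those for the other 12 were lost without at least 1.

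**Figure D3:**
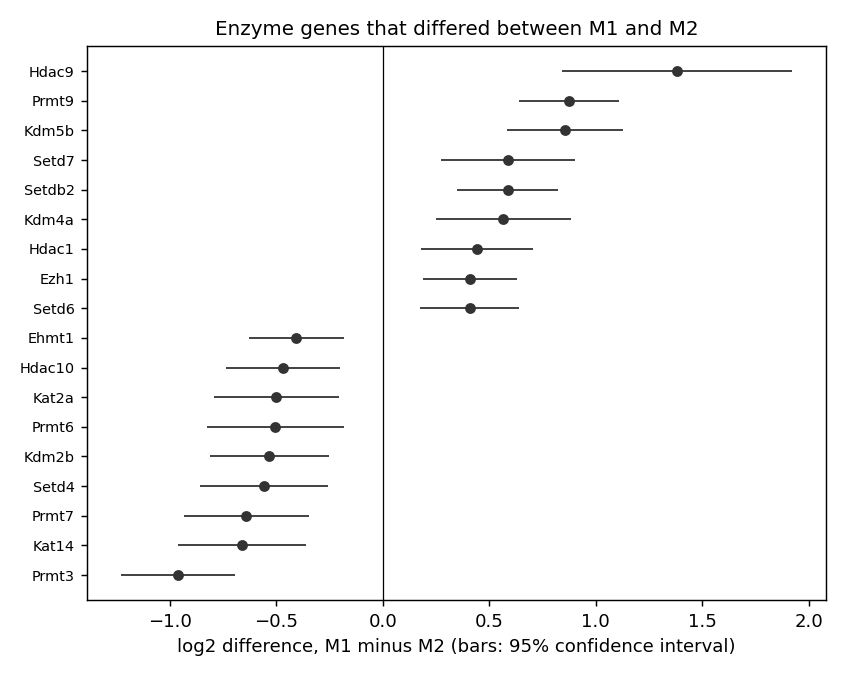
Log2 difference M1 minus M2 of the 18 enzyme genes that passed in limma, with 95% confidence intervals. Hdac9, at 1.38 with both M2 arrays and 0.83 without M2 replicate 2, lies farthest to the right and Prmt3, at -0.96, farthest to the left.

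Many enzyme genes are measured by several probe sets, and the brightest stood for the gene above. Their values are log2 differences against M0. In M1, 12 of the 18 called genes had several. All probe sets gave the same call in 4 of them, some did not pass in 8, and none passed in the opposite direction. In M2, 6 of the 10 called genes had several, and in all 6 some did not pass. Kdm6b was higher in M1 on all 3 of its probe sets, by 1.30, 0.88 and 0.46, but in M2 on the brightest alone. Setd5 was higher on its 3 probe sets, by 0.70, 1.10 and 0.55, and Kdm2b was lower on both of its own, with -0.92 and -0.64.

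A second probe set gave the same call for Prmt9 in M1, at 0.84, for Hdac9 in M1, at 0.51, for Prmt3 in M2, at 0.81, and for Setd4 in M2, at 0.64. For Kdm4a the second probe set was dim, at 13.0 units, and gave -0.22 in M1, which did not pass. The 3 other probe sets of Kdm5b gave 0.27, 0.34 and 0.31, which did not pass either. Second probe sets above 64 units also did not pass for Hdac2 in M2, at 0.205, for Kdm1a in M1, at 0.28, and for Kat2a in M1, at -0.28. Another probe set of Kat2a, at 97.0 units, passed as lower in M1, at -0.92. The second probe set of Setd1b, likewise above 64 units, gave -0.40 in M1 and -0.44 in M2 and passed in neither. Genes that were not called had another probe set that passed in 2 cases in M1, Kat2b and Prmt6, and in 4 cases in M2, Hdac4, Kat14, Kdm2a and Setd3. The dimmer probe set of Prmt6, at a mean of 38.7 units, was higher in M1 by 0.80, where the brighter gave -0.02.

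**Figure D4:**
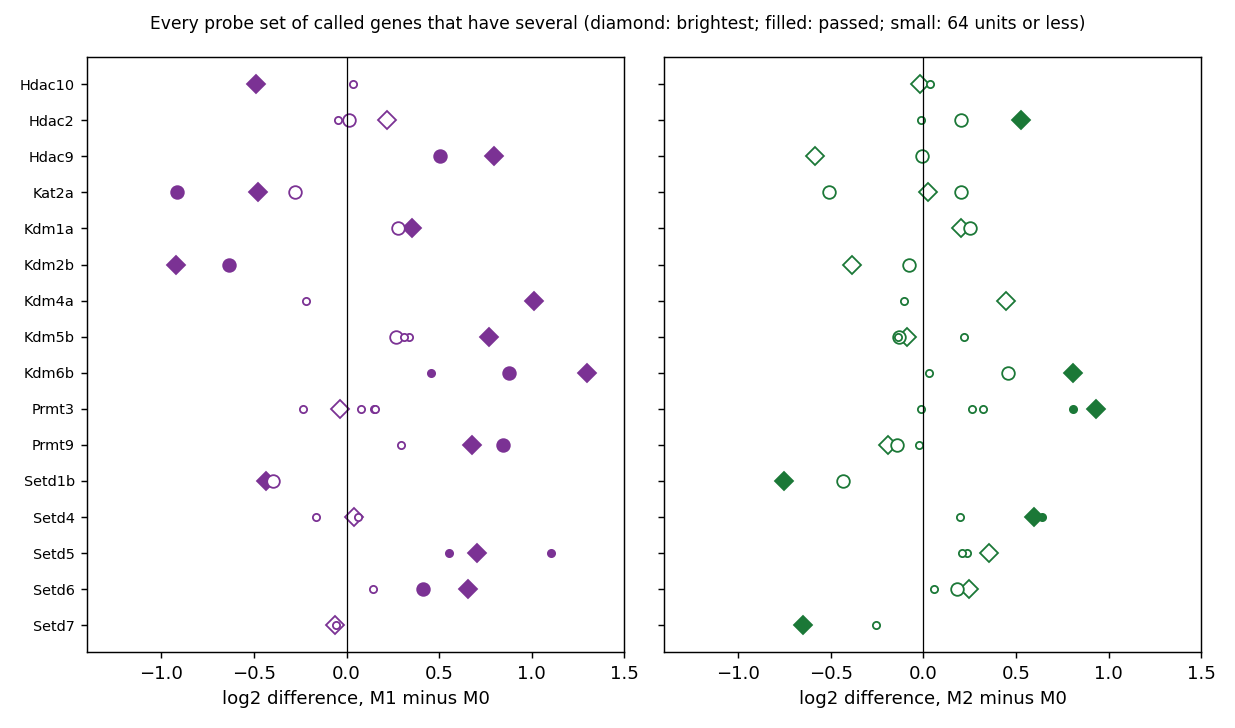
Log2 differences of every probe set of the called enzyme genes that have several, in M1 and M2 against M0, with diamonds for the brightest probe set of a gene, filled points for probe sets that passed and small points for those at a mean of 64 units or less. The probe sets of Kdm6b, Setd5 and Kdm2b all lie on 1 side of 0 in M1.

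Of 23 pairs of related enzymes looked up, both passed in 1 pair in M1, Hdac5 and Hdac9, in opposite directions, 1 of the pair passed in 16, and neither in 6. In M2 both passed in 0 pairs, 1 in 8 and neither in 15. The pairs share genes, and differences between the partners of a pair were not tested. In M1, Kdm4a passed at 1.01 while Kdm4b gave 0.29 and Kdm4c 0.24. Kdm5a, at 0.29 beside 0.77 for Kdm5b, likewise did not pass.

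The promoters of 47 of the 57 genes were found in a RefSeq table for GRCm38.p6, as windows from 250 bases before to 50 bases after a start site. Those of the demethylases Kdm4a and Kdm5b, of Setdb2 and of Prmt3 are shown, since these genes stood out in M1 or in M2, and the last 3 were chosen after their values were seen. Kdm4a lies at chr4:118179994-118180293 on the minus strand, Kdm5b at chr1:134559928-134560227 on the plus strand, Setdb2 at chr14:59440831-59441130 on the minus strand and Prmt3 at chr7:49778108-49778407 on the plus strand. Each sequence is written in the direction of its gene, with matches to the searched motifs in capitals.
Kdm4a: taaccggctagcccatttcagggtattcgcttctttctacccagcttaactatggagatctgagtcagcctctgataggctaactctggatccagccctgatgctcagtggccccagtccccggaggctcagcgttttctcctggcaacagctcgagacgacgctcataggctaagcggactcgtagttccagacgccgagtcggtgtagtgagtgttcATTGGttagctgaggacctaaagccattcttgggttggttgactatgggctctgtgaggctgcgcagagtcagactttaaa
Kdm5b: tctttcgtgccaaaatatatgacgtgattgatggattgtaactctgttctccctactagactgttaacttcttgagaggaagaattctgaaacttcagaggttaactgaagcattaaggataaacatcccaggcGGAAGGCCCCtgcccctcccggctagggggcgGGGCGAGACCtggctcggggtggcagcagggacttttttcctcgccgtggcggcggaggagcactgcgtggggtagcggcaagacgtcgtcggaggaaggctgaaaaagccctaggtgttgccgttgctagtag
Setdb2: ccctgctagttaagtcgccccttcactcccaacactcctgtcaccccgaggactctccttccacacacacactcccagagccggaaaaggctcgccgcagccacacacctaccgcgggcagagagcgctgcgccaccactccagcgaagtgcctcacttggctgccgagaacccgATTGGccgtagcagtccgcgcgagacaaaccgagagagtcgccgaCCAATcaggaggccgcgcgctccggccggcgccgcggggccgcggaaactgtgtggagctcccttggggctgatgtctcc
Prmt3: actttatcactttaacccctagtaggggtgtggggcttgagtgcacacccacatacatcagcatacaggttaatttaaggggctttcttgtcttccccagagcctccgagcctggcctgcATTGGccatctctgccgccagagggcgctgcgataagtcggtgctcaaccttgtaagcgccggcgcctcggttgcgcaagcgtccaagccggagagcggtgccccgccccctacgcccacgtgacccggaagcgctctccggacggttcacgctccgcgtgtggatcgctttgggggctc

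Capitals in Kdm5b mark matches to a loose NF-κB motif, GGGNNNNNCC, in which N is any base. Those in Kdm4a, Setdb2 and Prmt3 mark matches to the CCAAT box, and both motifs were searched on either strand. The NF-κB motif was in 50.8% of all 32851 promoter windows and in 41 of the 64 windows of the enzyme genes (64.1%). The CCAAT box was in 37.4% of all windows and in 28 of the 64 (43.8%). The interferon response element, GAAANNGAAA, was in 3.44% of windows and, of the enzyme genes, in Kat5, which did not pass. STAT motifs were TTCNNNGAA, in 8.3% of windows and in Hdac7, Kdm3a and Setd7, and TTCNNNNGAA, in 6.95% and in Hdac4. An E2F motif, GCGGGAA, was in 4.6% of windows and in Kat14 and Prmt1. Some genes have several windows, which can overlap.

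Enzymes of the same marks under other symbols, and the proteins that work with them, were looked up as further lists, whose values are given as log2 differences against M0. Of 20 other lysine methyltransferases, 2 rose and 2 fell in M1 and 4 rose in M2. Smyd2, which methylates p53, had a difference of -0.89 in M1 and 0.53 in M2 and passed in both. Kmt5a, the H4K20 monomethyltransferase, rose by 0.54 and 0.89. Nsd3, an H3K36 methyltransferase, rose in M1 by 0.71. Smyd4 rose in M2 by 1.08, the 1 gene of this list that passed at 2-fold. Of 12 other demethylases and JmjC proteins, 2 rose and 2 fell in M1 and 2 rose in M2. The hydroxylase Riox2 rose by 0.54 in M1 and by 1.07 in M2, and Jarid2, a partner of Polycomb repressive complex 2 that lacks demethylase activity, passed at -0.51 in M1 and 0.86 in M2.

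Of 7 sirtuins, the NAD-dependent deacetylases, 2 rose in M1, mitochondrial Sirt3 by 0.87 and nuclear Sirt6 by 0.58, and none passed in M2 in limma, with 1 at an unadjusted p under 0.05. Of 6 genes of arginine methylation and citrullination, 2 fell in M1 and 1 in M2. Padi4, which turns histone arginine into citrulline, averaged 94.0 units in M0, 36.5 in M1 and 28.3 in M2, with differences of -1.37 and -1.72, and Padi2 fell in M1, with -1.33. Of 20 other acetyltransferases and coactivators, 2 rose and 2 fell in M1, and 3 rose and 1 fell in M2. Hat1, which acetylates new histone H4, rose in M1 by 0.55. Naa50 passed at -0.52 in M1 and 0.59 in M2, and Gtf3c4 rose in M2 by 0.66.

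Among 9 partners of Polycomb repressive complex 2, 2 rose and 2 fell in M1 and 3 rose in M2, and Mtf2 rose in both, by 0.64 and 0.55. Of 15 subunits of Polycomb repressive complex 1, 4 rose and 2 fell in M1 and 2 rose and 1 fell in M2. The subunit Bmi1 rose in both, by 0.64 and 0.68, and Cbx6 fell in both, with -0.58 and -0.89. Of 24 subunits of deacetylase corepressors, 4 rose and 6 fell in M1 and 5 rose and 2 fell in M2, with Chd3 lower in both. Of 11 subunits that COMPASS complexes share, 1 passed in M1, Cxxc1 at 0.46, and none in M2, with 3 at an unadjusted p under 0.05. Of 2 BET bromodomain readers of acetyl-lysine, Brd2 rose in M1 by 0.72 and in M2 by 0.64.

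**Figure D5:**
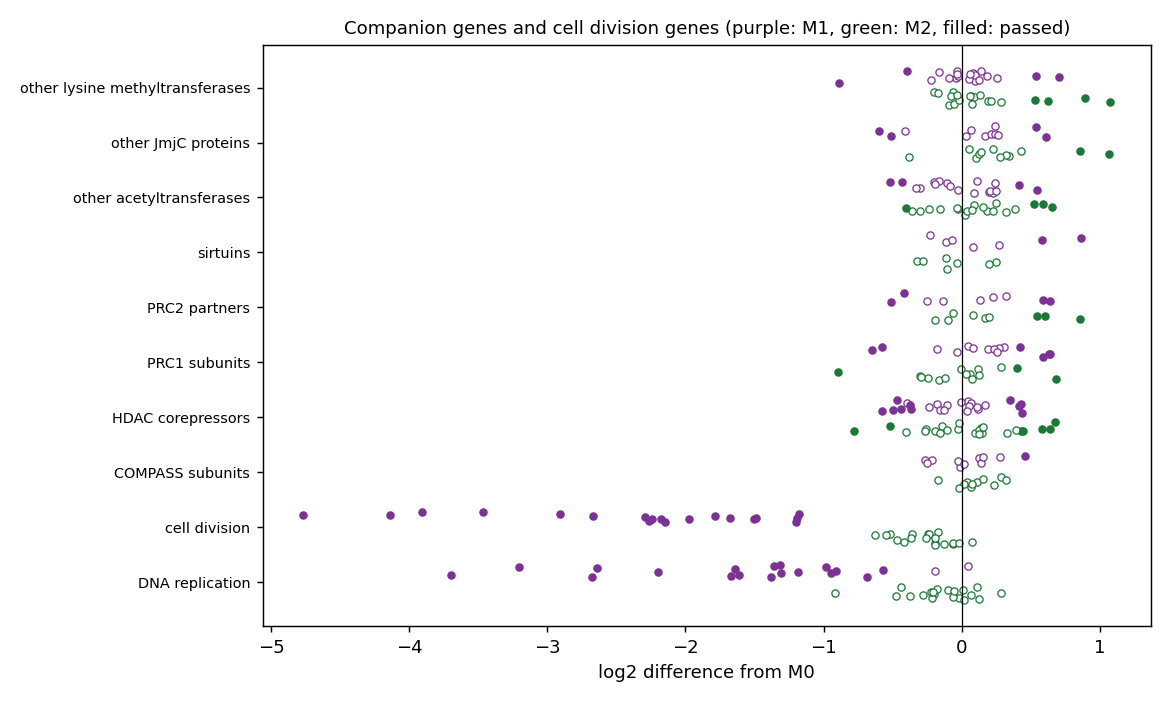
Log2 differences in M1 and M2 against M0 of the genes of 10 lists, with filled points for genes that passed in limma. The lists hold related enzymes, partner proteins, cell division genes and DNA replication genes. All 19 cell division genes and 18 of 20 DNA replication genes passed as lower in M1, with medians of -2.18 and -1.34. Neither of these lists had a gene that passed in M2.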

How the data were processed

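RNA of 8 macrophage cultures was measured on Affymetrix mouse arrays. The authors normalized them by RMA (GenePattern's Expression File Creator) and deposited a linear intensity for each of 45101 probes. Here 64 control probes were left out, log2 of the intensity was taken, and 45037 probes were tested. The 34945 probes with 1 symbol named 18193 genes, and the brightest probe set stood for a gene.

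Every test was a limma fit (limma 3.58.1, R 4.3.3) of a mean per condition to all 8 arrays, which left 5 residual degrees of freedom beside a prior worth 6.95. Benjamini-Hochberg adjustment ran over all probes. Plots were made in Python 3.11.15 (matplotlib 3.10.9). The number of arrays limits the precision.

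The enzyme genes, lists and tests were chosen with earlier results of these data known. All arrays are given for the 10 largest differences that passed in each comparison with M0, and further such genes were chosen after their values were seen. For the lists, up to 3 passing genes per comparison are named. Alternatives were a replicate block, the methods' t-test, scaling, limits on dim probes, a stricter threshold, other probe sets and each array left out.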

Additional observations from a re-analysis of the deposited data

How the results depend on the processing

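With each array left out in turn, the number of enzyme genes called was 9 to 13 for higher and 3 to 5 for lower in M1, 2 to 10 and 1 to 3 in M2, and 5 to 10 and 2 to 9 for M1 over and under M2. Called differences kept their call in 302 of 368 such fits. In M1, 11 of 18 calls were kept in every one, and in M2 2 of 10, Prmt3 and Setd1b.

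On log2 values the methods' t-test with adjustment gave 9 higher and 2 lower genes in M1. It gave 0 and 0 in M2 and 3 and 0 between M1 and M2. On linear values it gave 6 and 2 in M1, 0 and 0 in M2 and 2 and 0 between M1 and M2. Of all 45037 probes it called 5048 in M1, 270 in M2 and 1526 between M1 and M2 on log2 values. On linear values it called 4602, 232 and 1135 probes. Unadjusted, it gave 12 higher and 8 lower in M2 on log2 values. An adjusted p under 0.01 in limma left 8 and 3 in M1, 3 and 1 in M2 and 4 and 3 between M1 and M2. With intensities under 64 units set to 64, 3 fell in M1, 4 rose and 1 fell in M2, and 2 were lower in M1 than in M2. With genes above 64 units alone, 11 rose in M2. A further quantile normalization, the probe set of largest variance or any probe set gave 5 lower in M2 each. Prmt6, at -0.50 between M1 and M2, turned to 0.68 (adjusted p = 0.00448) with its most variable probe set, which is another, dim probe set at 38.7 units. The cause of the other shifts was not tested.

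With a replicate block the counts were 12 and 5 in M1, 5 and 3 in M2 and 9 and 6 between M1 and M2. It ended the calls for Prmt1 in M1 (adjusted p = 0.0659), Ehmt1 and Prmt5 in M2 (0.106 and 0.0575) and Hdac10, Kat2a and Prmt6 between M1 and M2 (0.0522, 0.0523 and 0.0847). Deviations of arrays with the same number correlated at -0.172 to 0.0547 over 7 pairs, and those of other arrays at -0.150 to 0.190 over 14. The sources used here do not say whether arrays with the same number come from the same mouse, and these correlations do not settle it.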
